A study of Mus musculus with 11 samples.

Results

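Regions with altered acetylation of histone H3 lysine 27 (H3K27ac) at 5 genes of the cadherin superfamily, *Cdh2*, *Cdh4*, *Cdh13*, *Pcdhgc3* and *Fat4*, are described here in the atrial cardiomyocyte nuclei of mice that carry a missense change in the transcription factor *Tbx5*. H3K27ac marks promoters and enhancers in use. The CUT&RUN assay reads it by tethering a nuclease to an antibody against the mark, so that the DNA around marked nucleosomes is cut free and sequenced. A region was taken when the midpoint of its most significant 500 bp bin, the top bin, lay in or within 100 kb of the body of a member gene and that gene was the nearest protein-coding gene. The rule found 7 of the 1652 regions that the authors listed as differentially acetylated, namely 2 at *Cdh2*, 2 at *Fat4* and 1 at each of the other genes. The genes were selected on their difference between the genotypes, so the levels below describe that difference, and a count test of the same values, given further down, is no independent evidence of it.

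The first genotype was *Tbx5*G125R/+ (n = 6 mice), heterozygous for a glycine-to-arginine change introduced into the germline by CRISPR-Cas9, and the second was control (n = 5 mice). Both were adults, 8 to 12 weeks old per the labels. Left and right atria were pooled, and nuclei were sorted by PCM1 (pericentriolar material 1), which cardiomyocytes carry around the nucleus. The allele is present in every cell type of these mice and not in cardiomyocytes alone.

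Cadherins are adhesion receptors of the cell surface whose extracellular repeats need calcium to bind a partner on the neighbouring cell. Classical cadherins hold on to the actin cytoskeleton through catenins, and in heart muscle N-cadherin, the product of *Cdh2*, is the classical cadherin of the intercalated disc, the end-to-end junction of cardiomyocytes. Desmosomal cadherins link the same junction to the desmin filaments, protocadherins are known above all from neurons, and the very large Fat cadherins act in planar cell polarity and in Hippo signalling. The measurements below concern chromatin at these genes, since RNA and protein were not measured in these libraries.

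The top bins at *Cdh2* (both regions), *Cdh4* and *Cdh13* were lower in *Tbx5*G125R/+, and those at *Pcdhgc3* and *Fat4* (both regions) were higher. The 4 decreased regions had a median level of 18.2 normalised reads in *Tbx5*G125R/+ and 92.0 in controls, where all 313 decreased regions of the table had medians of 26.1 in *Tbx5*G125R/+ and 90.2 in controls. The 3 increased regions had a median level of 24.7 in *Tbx5*G125R/+ and 1.76 in controls, where all 1339 increased regions had medians of 30.5 in *Tbx5*G125R/+ and 2.27 in controls. Of all listed regions 81.1% were higher and 18.9% lower in *Tbx5*G125R/+, so that 4 decreased among 7 is more than the table's share, but the members were chosen with these directions known. A normalised read is a read of the top bin divided by the size factor of its library.

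The *Cdh2* gene (chromosome 18, 16588877 to 16809246 in mm10, gene ID 12558) held a pair of decreased regions. The wider of them spanned 42000 bp, from 16724501 to 16766500, a width at the 98.8th percentile of all listed regions, with its top bin 159 kb from the lower end of the 220 kb gene body. Here and below, the lower end is the end with the lower coordinate, which need not be the start of the gene. The levels of the wider region were 62.6, 58.1, 46.1, 78.4, 105 and 79.3 normalised reads in *Tbx5*G125R/+ replicates 1 to 6, against 198, 127, 268, 223 and 158 in control replicates 1 to 5. Every mutant library lay below every control library, and the highest mutant library, replicate 5, was also the shallowest. The means were 71.6 ± 20.7 in *Tbx5*G125R/+ and 195 ± 55.0 in controls (SD, n = 6 and 5), a 2.72-fold lower level, or −1.44 ± 0.25 (SE) on the log2 scale. Because the top bin made up 1.19% of this region, the rest of the region was not measured by these values.

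The other *Cdh2* region, called region 1, ran from 16636001 to 16642250, with its top bin 111 kb below that of the wide region 2. Its levels were 9.78, 4.47, 25.6, 5.16, 0 and 11.5 normalised reads in *Tbx5*G125R/+, against 51.1, 29.3, 34.9, 63.7 and 72.2 in controls. The groups did not overlap, though mutant replicate 3 at 25.6 came close to control replicate 2 at 29.3. The means were 9.41 ± 8.90 in *Tbx5*G125R/+ and 50.2 ± 18.3 in controls (SD), 5.34-fold lower in *Tbx5*G125R/+ (log2 ratio −2.42 ± 0.60). Without mutant replicate 3 the level was 8.13-fold lower, and without mutant replicate 5 it was 4.45-fold lower. Leaving out the shallowest library of each genotype gave a log2 ratio of −1.99. The 0 of mutant replicate 5 rests on the shallowest mutant library, in which a count of 0 allows up to 6.56 normalised reads.

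*Cdh4* encodes R-cadherin, a classical cadherin first described in the retina. Its single region (chromosome 2, 179640251 to 179641750, in a gene body from 179442423 to 179899377, gene ID 12561) was the narrowest of the 7, at 1500 bp, and lay 199 kb from the lower end of the gene. The levels were 7.34, 15.1, 6.86, 18.6, 0 and 28.2 normalised reads in *Tbx5*G125R/+, against 27.7, 124, 240, 118 and 39.0 in controls. This was the only member region whose groups overlapped, since mutant replicate 6 at 28.2 lay just above control replicate 1 at 27.7. The controls fell into 3 libraries at 118 or above and 2 at 39.0 or below, the widest spread of controls among the 4 decreased regions. The means were 12.7 ± 10.0 in *Tbx5*G125R/+ and 110 ± 84.9 in controls (SD), 8.65-fold lower in *Tbx5*G125R/+ (log2 ratio −3.11 ± 0.68).

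*Cdh13* encodes T-cadherin, which lacks a cytoplasmic part, is tethered to the membrane by a lipid anchor and binds adiponectin. The gene is the longest of the 5, at 1185 kb (chromosome 8, 118140017 to 119324929, gene ID 12554), and its region (118710751 to 118715000) lay 574 kb from the lower end, near the middle. The levels were 14.7, 13.4, 21.8, 26.8, 39.4 and 26.1 normalised reads in *Tbx5*G125R/+, against 54.3, 78.4, 67.5, 84.5 and 87.8 in controls. The groups were well apart, with the highest mutant library below the lowest control library. The means were 23.7 ± 9.51 in *Tbx5*G125R/+ and 74.5 ± 13.7 in controls (SD), 3.14-fold lower in *Tbx5*G125R/+ (log2 ratio −1.65 ± 0.26). Relative to its mean, the control spread was 18.3%, against 77.5% at *Cdh4*.

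**Figure D1:**
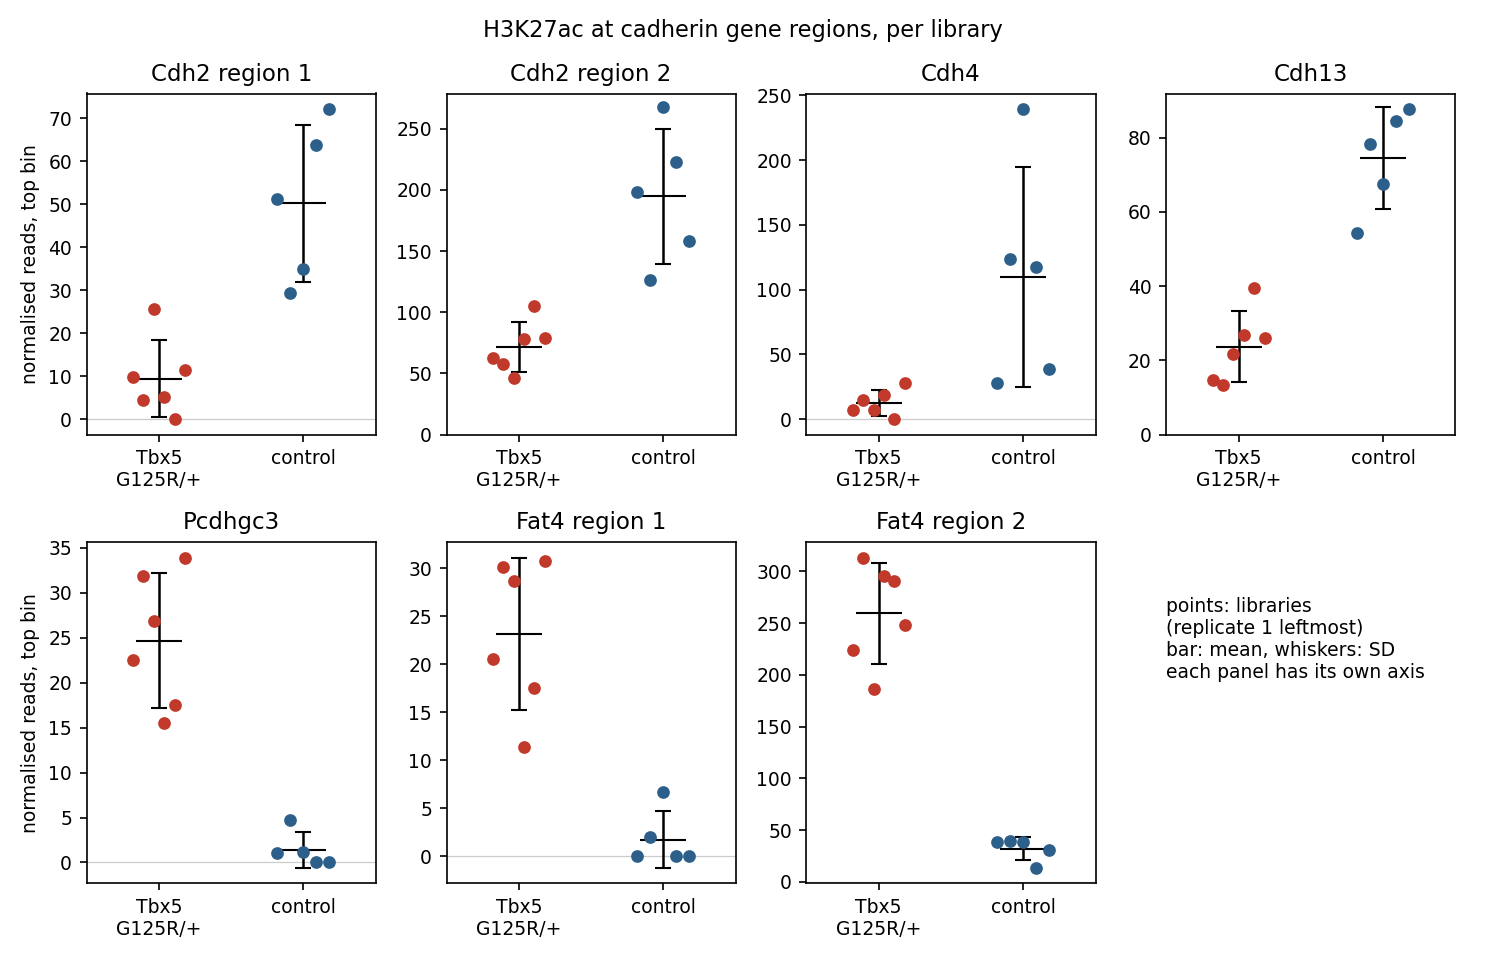
Normalised reads of the top bin (y axis) in each library at the 7 regions, *Tbx5*G125R/+ (red, n = 6) left of control (blue, n = 5), with mean and SD, each panel on its own linear axis. The mutant libraries lie below the controls at Cdh2 and Cdh13 and above them at Pcdhgc3 and Fat4, and Cdh4 is the panel in which a mutant library (28.2) reaches a control library (27.7).

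Among the gains, *Fat4* region 2 had by far the most reads. *Fat4* encodes an atypical cadherin that binds the cadherin Dchs1 on the neighbouring cell. Region 2 (chromosome 3, 38951751 to 38954750, in a gene body from 38884667 to 39011992, gene ID 329628) had 224, 313, 186, 295, 291 and 248 normalised reads in *Tbx5*G125R/+, against 38.3, 39.5, 38.2, 13.8 and 31.2 in controls. Its lowest mutant library, at 186, was far above its highest control library, at 39.5. The means were 260 ± 48.8 in *Tbx5*G125R/+ and 32.2 ± 10.8 in controls (SD), 8.06-fold higher in *Tbx5*G125R/+ (log2 ratio 3.01 ± 0.24), from 2213 reads in the mutants and 154 in the controls. Its control level stood at the 93.5th percentile of the increased regions, where the median was 2.27 normalised reads.

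*Fat4* region 1 (38927501 to 38930000), 24.75 kb below region 2, was near 0 in controls. The levels were 20.5, 30.2, 28.7, 11.4, 17.5 and 30.8 normalised reads in *Tbx5*G125R/+, against 0, 2.04, 6.75, 0 and 0 in controls. Of the 9 control reads, 6 came from replicate 3. The means were 23.2 ± 7.95 in *Tbx5*G125R/+ and 1.76 ± 2.93 in controls (SD), 13.2-fold higher in *Tbx5*G125R/+ (log2 ratio 3.72 ± 1.09). The ratio of the pooled rates was 12.6, with an exact 95% counting interval of 6.52 to 27.9, and without control replicate 3 it was 30.4 (10.3 to 149, on 3 control reads). Region 1 lay 41.3 kb and region 2 66.1 kb downstream of the *Fat4* start site in the RefSeq promoter table (38886940). From the lower end of the gene body the distances were 43.6 and 68.3 kb.

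*Pcdhgc3* is a C-type gene of the gamma-protocadherin cluster, in which each variable first exon has a promoter of its own and is joined to shared constant exons. Its region (chromosome 18, 37813751 to 37820750, gene ID 93706, gene body 37806410 to 37841873) lay inside 22 overlapping protein-coding gene bodies, 19 of them gamma-protocadherins, so the assignment to *Pcdhgc3* is by name only. The top bin was 1.08 kb below the lower end of the *Pcdhgc4* gene body and 5.55 kb below that of *Pcdhgc5*, and the region covered both of these ends. The levels were 22.5, 31.8, 26.8, 15.5, 17.5 and 33.9 normalised reads in *Tbx5*G125R/+, against 1.07, 4.77, 1.12, 0 and 0 in controls. Every mutant library exceeded every control library, and 7 of the 9 control reads came from replicate 2.

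The means at *Pcdhgc3* were 24.7 ± 7.51 in *Tbx5*G125R/+ and 1.39 ± 1.97 in controls (SD), 17.7-fold higher in *Tbx5*G125R/+ (log2 ratio 4.15 ± 0.93). The ratio of the pooled rates was 13.4, with an exact 95% counting interval of 6.95 to 29.7. Without control replicate 2 it was 40.8 (11.2 to 339, on 2 control reads). Counting intervals and floors cover counting error only. A region on the same chromosome (37929751 to 37936500) fell just outside the rule, 90.6 kb from *Pcdhgc3* but nearest to *Diaph1*, and it had 24.5 ± 5.10 normalised reads in *Tbx5*G125R/+ and 1.87 ± 2.76 in controls (SD).

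**Figure D2:**
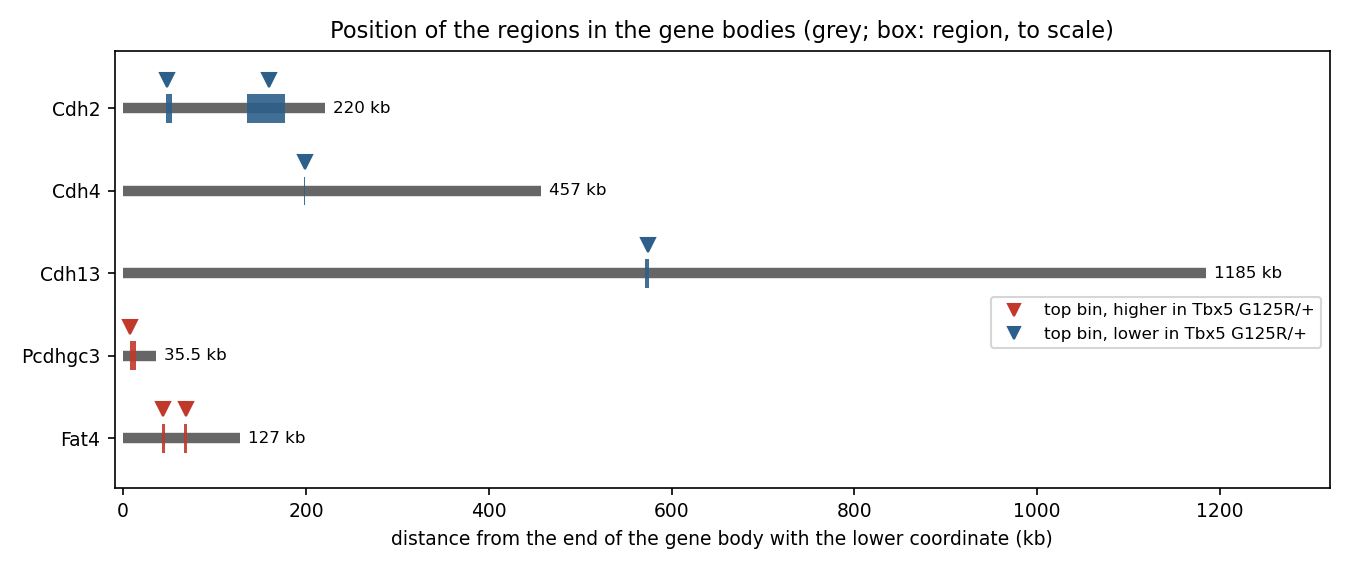
Distance from the lower-coordinate end of each gene body (x axis, kb) for the 5 genes (grey bars, lengths at the right), with regions as boxes to scale and top bins as triangles, red where higher and blue where lower in *Tbx5*G125R/+. All 7 top bins lie inside gene bodies, from 7.59 kb in Pcdhgc3 to 574 kb in Cdh13.

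All 7 top bins lay inside the body of their gene, against 63.1% of all listed top bins. The members are long genes, with a median of 220 kb against 17.1 kb for all protein-coding genes, and a longer body holds more bins. None of the 7 regions reached either end of its gene body. A region inside a gene may act on another gene, which these data do not measure.

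In 6 of the 7 regions no library of one genotype reached the range of the other, *Cdh4* being the exception. Over the whole table the mutant libraries all exceeded the controls in 73.2% of the regions and all fell short of them in 15.1%. In an edgeR quasi-likelihood test of the recovered reads, adjusted for as many tests as the highest region number in the table, all 7 passed an adjusted p of 0.05, beside 72.7% of all listed regions called higher and 15.9% called lower. The rows were chosen in this same contrast, so these counts say nothing further about the cadherin genes. The edgeR log2 fold changes were −2.31 ± 0.58 and −1.46 ± 0.27 (SE) at *Cdh2* regions 1 and 2, −3.03 ± 0.48 at *Cdh4* and −1.69 ± 0.41 at *Cdh13*. They were 3.76 ± 0.78 at *Pcdhgc3* and 3.54 ± 0.80 and 2.99 ± 0.31 at *Fat4* regions 1 and 2.

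With DESeq2 size factors computed on the listed bins all 7 ratios stayed within the spread between libraries of those above, and with TMM factors they did not. Both kinds of factor, computed on the listed bins, assume that most listed bins do not differ, so neither checks the scaling free of that assumption. With TMM factors the median over all regions shifted by −1.72 on the log2 scale. Of the called regions 31.8% were then higher in *Tbx5*G125R/+, in place of 82.0%. The 7 ratios kept their signs under TMM, from −4.81 at *Cdh4* to 2.40 at *Pcdhgc3*, and *Fat4* region 1 and *Pcdhgc3* then missed the threshold.

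**Figure D3:**
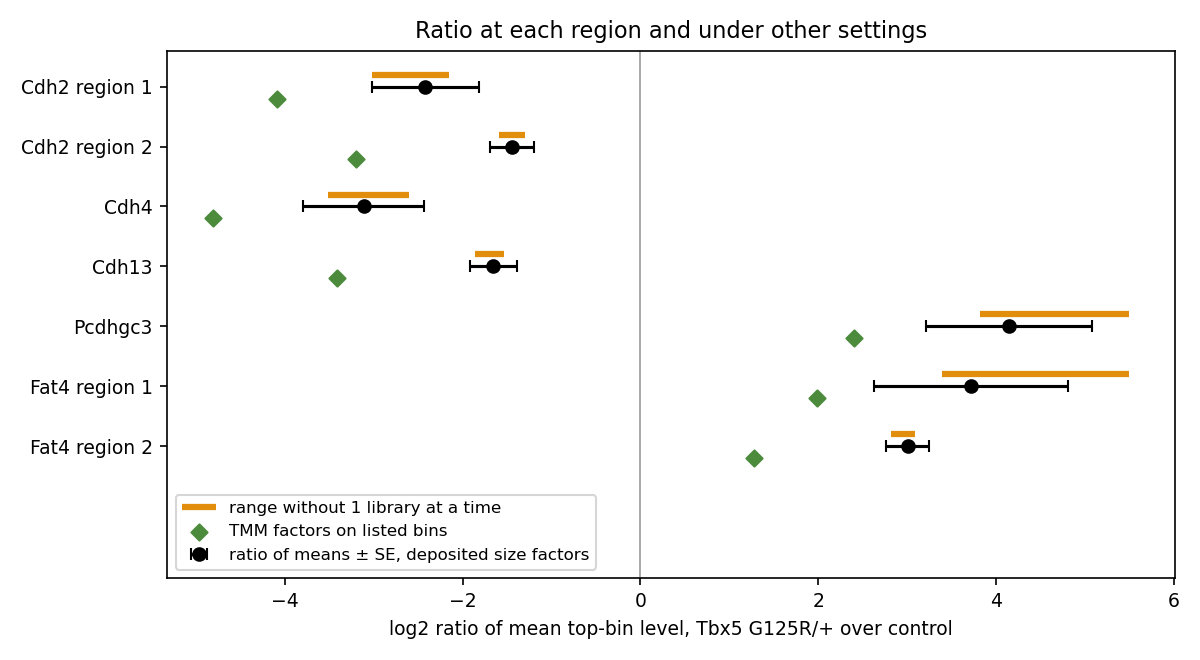
Log2 ratio of the mean top-bin level in *Tbx5*G125R/+ over control (x axis) for the 7 regions, with the SE over libraries (black), the range when 1 library is left out at a time (orange) and the ratio under TMM scaling (green). Signs hold at every setting, and the ranges are longest at Pcdhgc3 (to 5.49) and Fat4 region 1 (to 5.50), where a single control library holds most control reads.

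**Figure D4:**
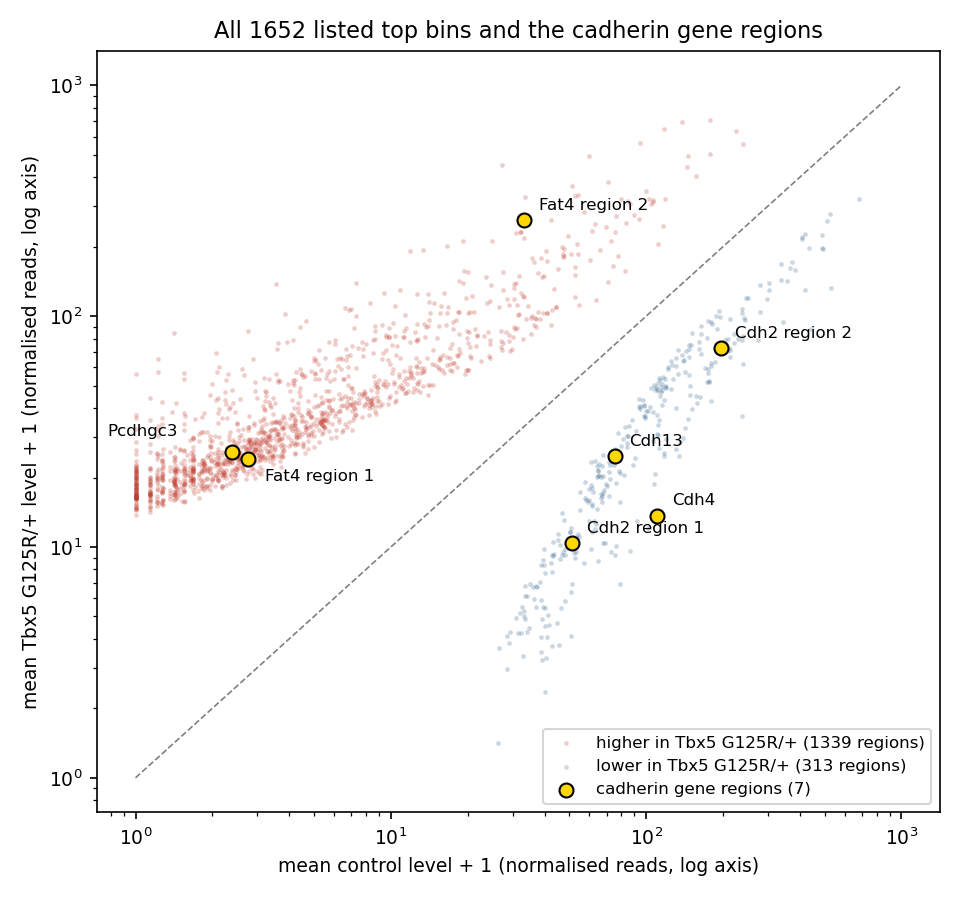
Mean top-bin level plus 1 in controls (x axis, log) against *Tbx5*G125R/+ (y axis, log) for all 1652 listed regions, red where higher and blue where lower in *Tbx5*G125R/+, with the 7 cadherin gene regions in gold. Pcdhgc3 and Fat4 region 1 sit among the many gains with a control level near 0, Fat4 region 2 stands at a control level of 32.2, and Cdh4, 8.65-fold lower, stands at the 89.5th percentile of the decreased regions by size of the ratio.

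Libraries of the same genotype did not order the regions alike. Mutant replicate 5, the shallowest, was the lowest mutant library at *Cdh2* region 1 and *Cdh4*, with 0 reads at each, and the highest at *Cdh2* region 2 and *Cdh13*. Mutant replicate 6 was the highest at *Cdh4*, *Pcdhgc3* and *Fat4* region 1. Top bins held 43183 to 161738 reads in *Tbx5*G125R/+ libraries and 27118 to 72442 in control libraries, and 0 reads were found in 5.63% of all listed bins in mutant replicate 5 and in 60.6% in control replicate 5. The part of depth in the gains from near 0 was not tested.

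The superfamily as a whole was followed through 119 genes in 6 lists, of which 30 had a listed region (25.2%), against 5.85% of all 21900 protein-coding genes. Of these 30 genes, 19 are gamma-protocadherins that share the single region at *Pcdhgc3*, and the median length of the 119 genes was 66.9 kb. The 17 regions comprised 9 increases and 8 decreases, beside 81.1% increases and 18.9% decreases in the table. The increased ones had a median level of 28.8 in *Tbx5*G125R/+ and 4.84 in controls, the decreased ones 33.0 in *Tbx5*G125R/+ and 103 in controls.

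All 3 regions at desmosomal cadherin genes were lower in *Tbx5*G125R/+, beside 18.9% of all listed regions. They lay at 2 of 9 genes, beside 5.85% of all protein-coding genes. All are on chromosome 18, and the *Dsc2* regions (20042501 to 20043750 and 20047501 to 20062500) are neighbours, so these are not 3 separate loci. *Dsg2*, which encodes desmoglein 2, the desmoglein of heart muscle, had 224 ± 34.0 normalised reads in *Tbx5*G125R/+ and 488 ± 121 in controls (SD), the highest control level among the 17 regions. *Dsc2*, its partner desmocollin 2, had 65.8 ± 19.0 in *Tbx5*G125R/+ and 146 ± 44.6 in controls at the wider region, where the groups overlapped. At its narrower region the level was 3.12 ± 2.80 in *Tbx5*G125R/+ and 27.6 ± 9.35 in controls. The other 7 desmosomal cadherin genes had no listed region. *Fat1*, a relative of *Fat4*, was also lower, at 42.2 ± 9.20 in *Tbx5*G125R/+ and 96.6 ± 18.1 in controls, so the Fat genes did not move in 1 direction.

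The non-clustered protocadherins had 3 regions at 2 of 12 genes, beside 5.85% of all protein-coding genes. All 3 were higher in *Tbx5*G125R/+, as were 81.1% of all listed regions. *Pcdh9* had 39.9 ± 17.1 normalised reads in *Tbx5*G125R/+ and 5.69 ± 5.75 in controls at the first region and 22.6 ± 9.53 in *Tbx5*G125R/+ and 2.68 ± 2.18 in controls at the other (SD). *Cdh22*, a type II cadherin, gained at 2 regions, with 155 ± 79.6 in *Tbx5*G125R/+ and 26.4 ± 19.7 in controls at the stronger and 28.8 ± 10.5 in *Tbx5*G125R/+ and 4.84 ± 1.55 in controls at the weaker. With *Cdh5*, described next, the classical and type II cadherins included 3 increases and 3 decreases, beside 81.1% increases and 18.9% decreases in the table. These lay at 4 of 19 genes, beside 5.85% of all protein-coding genes.

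*Cdh5*, which encodes the cadherin of endothelial junctions, gained at a region 3.36 kb from the gene, at 10.3, 7.82, 43.0, 24.8, 2.19 and 43.3 normalised reads in *Tbx5*G125R/+, against 0, 0.681, 3.37, 1.38 and 0 in controls. Mutant replicate 5 lay below control replicate 3, so the groups overlapped.

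*Pcdh18* was the only 1 of the 17 superfamily top bins to lie on a promoter of the RefSeq table, and its promoter is shown for that reason. The levels were 88.5, 124, 108, 104, 114 and 126 normalised reads in *Tbx5*G125R/+, against 68.2, 47.0, 58.5, 55.4 and 39.0 in controls, 2.06-fold higher in *Tbx5*G125R/+ with no overlap. The sequence, from RefSeq (GRCm38.p6, minus strand, chr3:49757267-49757566, 5′ to 3′), overlaps the top bin by 234 bp, and the capitals mark its match to the GC box GGGCGG of the KLF and SP factors.
Pcdh18 promoter: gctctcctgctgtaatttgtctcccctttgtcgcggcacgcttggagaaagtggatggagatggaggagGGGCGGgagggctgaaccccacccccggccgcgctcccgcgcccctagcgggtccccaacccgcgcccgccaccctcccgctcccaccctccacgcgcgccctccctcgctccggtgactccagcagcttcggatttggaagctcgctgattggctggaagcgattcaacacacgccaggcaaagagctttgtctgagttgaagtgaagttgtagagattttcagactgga

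The window holds 1 GGGCGG, which 35.7% of 32851 promoters of the same length hold on either strand, and 1 match to the NKX motif TNAAGTG, which 11.5% hold. The T-box motifs GGTGTG and AGGTGTGA, present in 19.0% and 1.28% of promoters, were not found in it on either strand (the shorter letters are part of the longer). The same holds for GGGTGTGG, AGATAA and the MEF2 motif, present in 3.56%, 11.2% and 3.19%. Of the 5 members, *Fat4* alone had an entry in the promoter table, and no listed region covered it. A top bin on a promoter that the table lacks would not be seen, so *Pcdh18* stands out only among the promoters it holds.

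**Figure D5:**
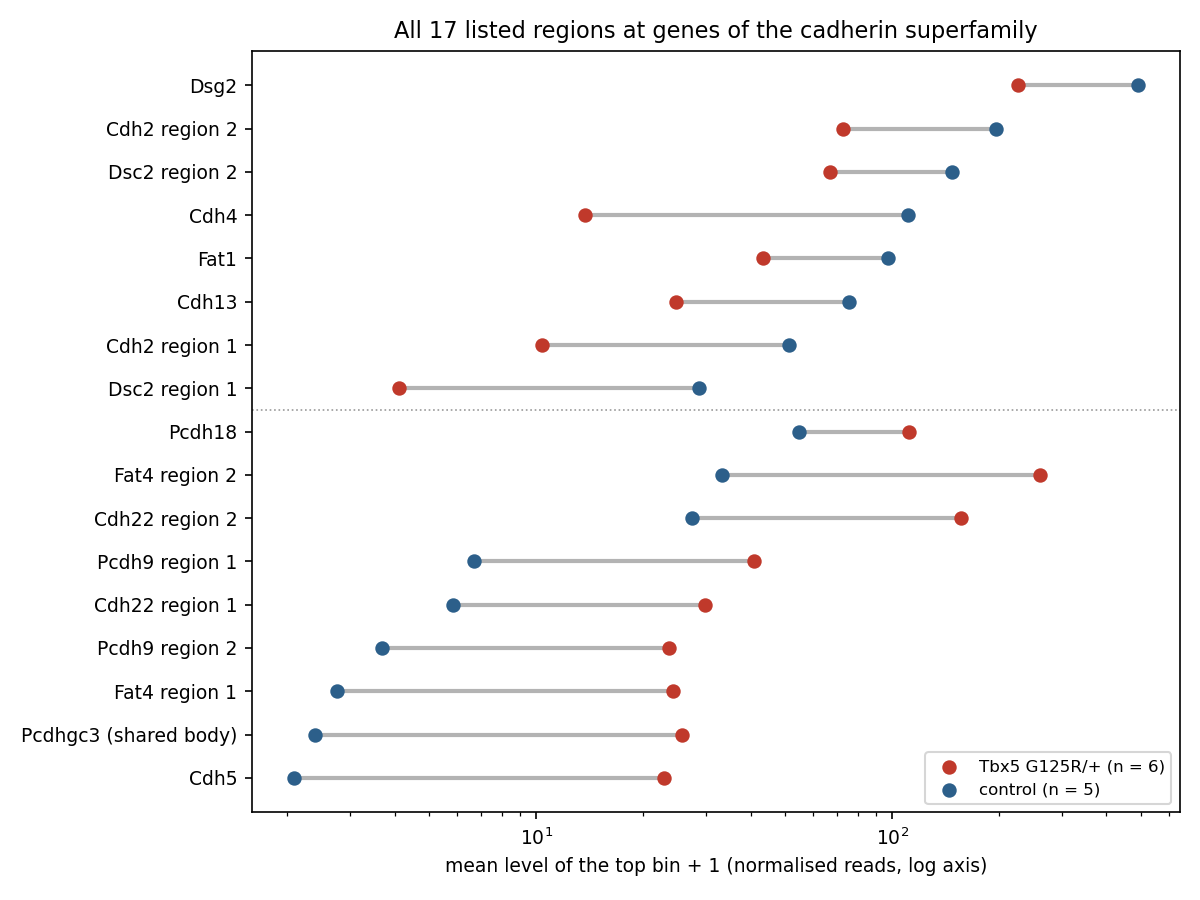
Mean top-bin level plus 1 (x axis, log) in *Tbx5*G125R/+ (red, n = 6) and control (blue, n = 5) for the 17 listed regions at superfamily genes, the 8 decreases above the dotted line and the 9 increases below it, each ordered by control level. Decreases include the strongest control signals, with Dsg2 at 488, whereas 6 of the increases start from control levels under 6 normalised reads.

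Catenins and other proteins of the intercalated disc had 6 listed regions at 3 of 27 genes, all higher in *Tbx5*G125R/+, beside 5.85% of all protein-coding genes with a region and 81.1% of all regions higher, so nothing particular to these genes is read from the count. *Ctnna3*, which encodes alpha-T-catenin, held 4 of them, the strongest with 71.1 ± 20.6 normalised reads in *Tbx5*G125R/+ and 2.59 ± 5.79 in controls (SD), all control reads coming from replicate 2. That region and 1 other of the 4 lie equally in *Lrrtm3*. *Jup*, the gene of plakoglobin, had 18.8 ± 9.85 in *Tbx5*G125R/+ and 0.993 ± 1.69 in controls, and *Vcl*, the gene of vinculin, had 21.1 ± 9.16 in *Tbx5*G125R/+ and 0.273 ± 0.609 in controls. Of 23 Hippo pathway genes, *Lats2*, a kinase of the pathway, had a region (the table's share is again 5.85%), at 36.0 ± 13.7 in *Tbx5*G125R/+ and 5.02 ± 6.07 in controls. None of the 5 genes of adiponectin, its receptors and their adaptors had a listed region.

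Markers of other cells were among the gains. The shares to read their counts against are 5.85% of all protein-coding genes with a listed region, and 81.1% of listed regions higher and 18.9% lower. Of 11 cardiomyocyte markers 3 (*Actn2*, *Ryr2* and *Actc1*) had listed regions, all lower, with summed levels of 280 to 367 in *Tbx5*G125R/+ libraries and 756 to 1134 in controls. Of 7 fibroblast markers 4 (*Pdgfra*, *Col1a2*, *Dcn* and *Postn*) had listed regions, all higher, with summed levels of 227 to 433 in *Tbx5*G125R/+ and 9.75 to 65.1 in controls. Of 7 endothelial markers 3 had listed regions, with *Kdr* and *Cdh5* higher, *Erg* lower, and summed levels of 594 to 871 in *Tbx5*G125R/+ and 164 to 408 in controls. Of 6 smooth muscle and pericyte markers *Rgs5* had a region, which was higher. No listed region was found for the 5 leukocyte, 3 Schwann cell and 4 epicardial markers. These lists are short, and leukocyte genes outside them, such as *Mpeg1*, *Spi1* and *Mrc1*, had listed regions that were higher. Some of the summed regions lay far from the marker gene. Those of *Dcn* were 97.25 and 40.0 kb away, that of *Postn* 89.7 kb and that of *Actc1* 19.9 kb. *Kdr* had regions 58.1 and 31.8 kb away, with mean levels of 310 and 175 in *Tbx5*G125R/+. The sums are therefore not levels at the marker genes alone. The levels of markers without a listed region were not analysed here. The part of other cell types in the gains at *Fat4*, *Pcdhgc3* and the other protocadherins was not tested.

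The regions most like the strongest region of each member were sought among 1478 regions tied to genes, by Pearson r of log2(level + 1) over the 11 libraries. These correlations are set largely by the genotype difference that put both regions into the table, and r after subtracting genotype means is given beside them, as a description of libraries that share depth. For *Cdh2* region 2 the nearest were *Rsbn1l* (0.965, within genotype 0.841), *Emilin2* (0.947 and 0.733) and *Hopx* (0.944 and 0.717). For *Cdh13* they were *Nsmaf* (0.946 and 0.697), *Emilin2* (0.943 and 0.657) and *Gabrr2* (0.938 and 0.793). *Emilin2*, which encodes an extracellular matrix glycoprotein, was thus near both.

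Among the regions nearest to *Cdh4* were *Ky* (0.931 and 0.833) and *Syde2* (0.923 and 0.814). *Pcdhgc3* was nearest to *Srgap1* (0.988 and 0.911), *Lag3* (0.985 and 0.926) and the strongest region of *Ctnna3* (0.979 and 0.838), where control replicate 2 was likewise the highest control library. *Fat4* region 2 was nearest to *Sh3pxd2a* (0.979 and 0.901), *Inpp5f* (0.969 and 0.751) and *Nfia* (0.968 and 0.707).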

How the data were processed

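H3K27ac CUT&RUN libraries of 6 *Tbx5*G125R/+ and 5 control mice were analysed from 1 deposited table. BWA, bedtools, DESeq2 and mm10 appear in the processing notes of the submitters, without versions. The authors tested bins of 500 bp, merged bins into regions and deposited, for each library, the normalised signal of the top bin. Dividing these signals by the smallest step in a library gave whole reads for 100% of values, within 0.05 reads. The deposited columns with the authors' own log2 fold change and adjusted p-value were not used, and direction was taken from the mean top-bin levels. Alternatives that would need those columns were not run.

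The members and gene lists were chosen with earlier results of these data known. All rows at member genes are described, and of the lists every gene with a listed region is named, except the gamma-protocadherins that share the *Pcdhgc3* region. Regions were tied to genes of the RefSeq annotation of GRCm38.p6. Log2 ratios compare mean levels, and their SE comes from the spread over libraries. Recovered reads of all 1652 top bins were tested with edgeR 4.0.16 (R 4.3.3; quasi-likelihood, two-sided, deposited size factors), with Benjamini-Hochberg adjustment over 126854 tests, the highest region number in the table. The test was tried on simulated data. Alternatives were DESeq2 1.42.0, TMM scaling, a filter on low counts, the listed rows alone in the adjustment, a replicate block, other pseudocounts, medians, and leaving out libraries. Size factors ran from 0.457 to 2.04 in *Tbx5*G125R/+ and from 0.513 to 1.47 in controls. Regions that were not listed were not analysed here. For each member the 3 regions with the highest correlation were sought, and 1 of those of *Cdh4* is not reported here.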

Additional observations from a re-analysis of the deposited data

Results flagged for a closer look

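At *Pcdhgc3*, control replicate 2 (4.77 normalised reads) stood apart from the other controls, of which the nearest had 1.12. It was the only such library among 14 groups examined (7 regions in 2 genotypes), and chance alone sets apart about 1 group in 20. That library holds 7 of the 9 control reads of the region.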

How the results depend on the processing

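All 118 alternative log2 ratios kept their direction, and 109 moved by less than the spread between libraries. Under TMM scaling the ratios were −4.08 and −3.20 at *Cdh2* regions 1 and 2, −4.81 at *Cdh4*, −3.41 at *Cdh13*, 2.40 at *Pcdhgc3*, and 1.99 and 1.28 at *Fat4* regions 1 and 2. Leaving out 1 library gave 3.83 to 5.49 at *Pcdhgc3* (highest without control replicate 2) and 3.40 to 5.50 at *Fat4* region 1 (highest without control replicate 3). A ratio of medians could not be computed at *Fat4* region 1, where the control median was 0. The alternatives that need the authors' fold changes or p-values were not run.

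The count of regions past the edgeR threshold was 5 to 7 without 1 library. *Cdh13* was lost without mutant replicate 1, 2 or 3 or control replicate 4, and *Cdh2* region 1 without mutant replicate 1, 2, 4 or 6 or control replicate 1 or 4. It was 6 without the shallowest library of each genotype, 5 with TMM and 7 with DESeq2. TMM called 146 regions of the table higher and 313 lower, against 1201 and 263. The same-numbered libraries did not deviate together (r from −0.145 to −0.0165), and none correlated best with its own number. With a replicate block on replicate numbers 1 to 5, which drops mutant replicate 6, 3 regions passed, and the table had 653 higher and 110 lower. The same libraries without the block gave 6 regions, and 1051 higher and 194 lower. Libraries of 6 of the 7 regions did not overlap, and 7 did not without mutant replicate 6 or control replicate 1.

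The control levels at *Pcdhgc3* and *Fat4* region 1 rest on 9 reads each.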
